A study of Mus musculus with 2 samples.

Results

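The aminoacyl-tRNA synthetase genes encode the enzymes that join each amino acid to its transfer RNA, and they are described here in granulocyte-monocyte progenitors, the bone marrow precursors of neutrophils and monocytes. Members were chosen by symbol alone, as protein-coding genes of the GENCODE annotation named with the letter of an amino acid followed by "ars", with or without a final 1 or 2, together with Eprs, Farsa and Farsb. The rule found 37 of 43346 annotated genes, of which 20 carry the name of a cytosolic form and 17, ending in 2, that of a mitochondrial form. The rule itself uses no measured value. The symbol Mars is used as the annotation gives it, and other sources write the same gene as Mars1.

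Total RNA depleted of ribosomal RNA was sequenced from 2 biological replicates of 1 group, made up of primary granulocyte-monocyte progenitors of male adult C57BL/6J mice aged 5 to 6 weeks, with no treatment or altered allele named. Each library started from 100 ng of RNA. The totals were 49473848 for replicate 1 and 44260902 for replicate 2, in expected counts, which are read counts split by an estimator among the features that share a read. The labels name separate biological replicates but tie both to 1 donor record, so an SD given here is the spread of these 2 libraries and may be partly technical. With 1 group there is no condition to compare and no test over samples, so the results are levels, contrasts between members within each library, and the agreement of the libraries. All 10 marker genes fixed for the progenitors were at or above 1 TPM (a level per transcript length, scaled to the library) in both libraries, and all 17 markers of stem, B, T and erythroid cells were below it. Of the 4 megakaryocyte and the 4 stromal and endothelial markers, Itga2b alone and Pecam1 alone reached 1 TPM, at 2.91 and 3.38 TPM and at 9.16 and 10.85 TPM.

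Each amino acid is joined to its tRNA by a synthetase specific to it, and the enzymes fall into a pair of structural classes with different catalytic folds. Cytosolic translation and mitochondrial translation use largely separate sets, although both are encoded in the nucleus. In mammals several of the cytosolic enzymes are bound in the multisynthetase complex, held by 3 scaffold proteins. A single gene, Eprs, encodes the cytosolic enzyme for both glutamate and proline, and the cytosolic phenylalanine enzyme is built of the subunits encoded by Farsa and Farsb. In humans the lysine and glycine genes, KARS and GARS, each give both a cytosolic and a mitochondrial product, so the mouse genes Kars and Gars, which have no counterpart ending in 2, are counted with the cytosolic forms by name only. Glutamine also has no mitochondrial synthetase of its own: glutamyl-tRNA is made first and is then converted by an amidotransferase.

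All 20 cytosolic members were expressed at or above 1 TPM in both libraries, and so were 16 of the 17 mitochondrial members. Of all 21461 nuclear protein-coding genes, 40.8% reached that level. Wars2, the mitochondrial tryptophan enzyme, was the exception, at 0.91 and 0.92 TPM in replicates 1 and 2, the order in which library values are given throughout. At or above 10 TPM in both libraries were 19 of the 20 cytosolic members and 0 of the 17 mitochondrial members, where the share of all nuclear protein-coding genes was 14.3%. The median cytosolic member was at 22.5 and 26.9 TPM. The median mitochondrial member was at 3.83 and 4.41 TPM. The median nuclear protein-coding gene at or above 1 TPM was at 6.46 and 7.74 TPM, between the cytosolic and the mitochondrial medians in both libraries. In bulk RNA, fewer cells with a transcript and less of it per cell cannot be told apart.

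**Figure D1:**
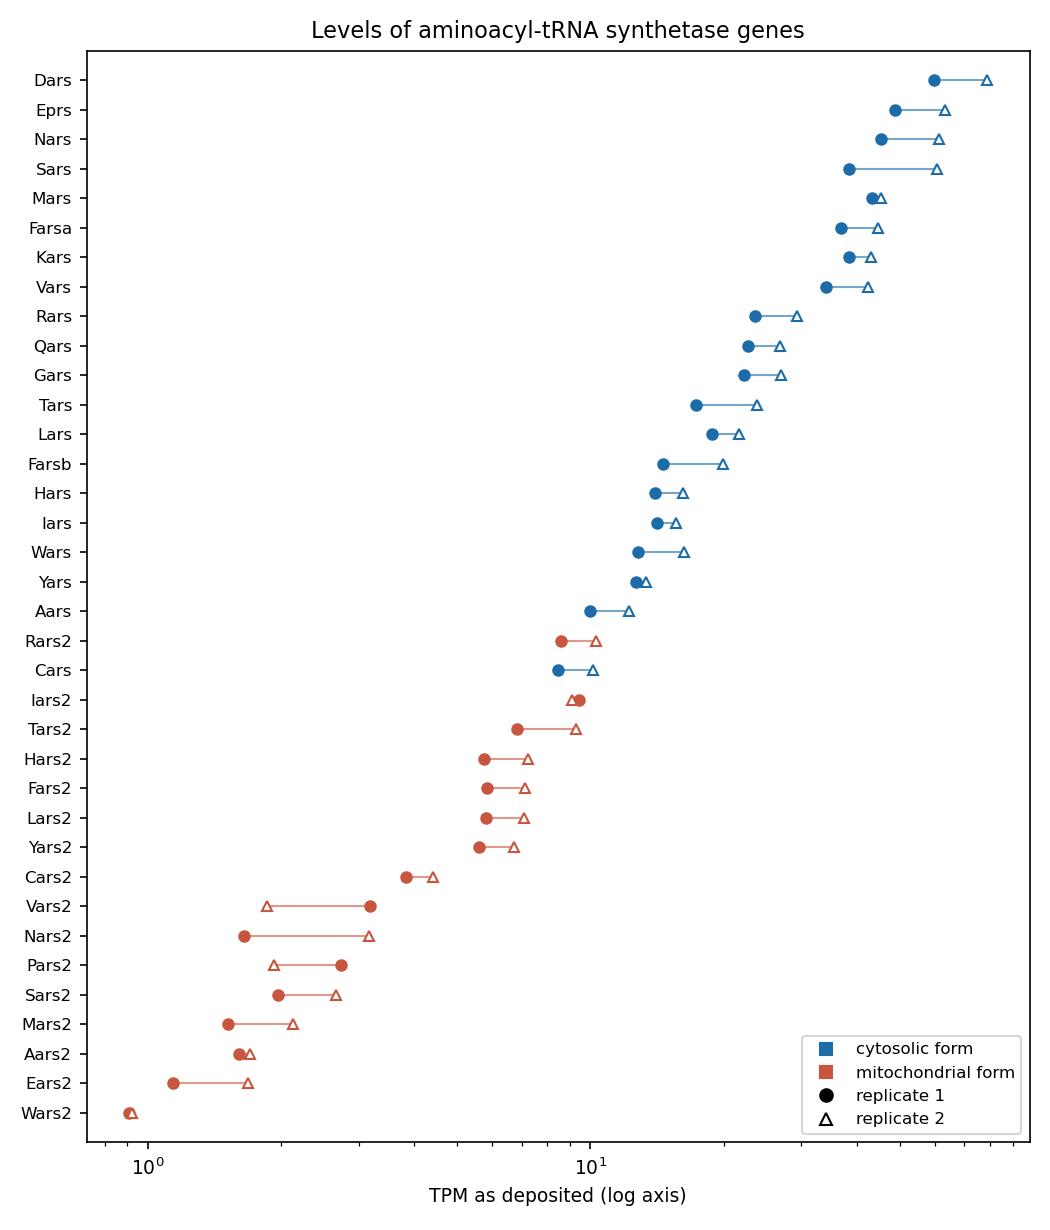
Deposited TPM on a log axis for 36 of the 37 members, ordered by mean TPM, with replicate 1 as a filled circle, replicate 2 as an open triangle, cytosolic forms in blue and mitochondrial forms in red. Only Cars among the 20 cytosolic forms lies among the mitochondrial forms, and the mitochondrial forms span 0.91 to 10.29 TPM.

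The sets hardly overlapped on gene TPM. Cytosolic members ranged over 8.45 to 59.71 TPM in replicate 1 and 10.14 to 78.69 TPM in replicate 2, against 0.91 to 9.44 TPM and 0.92 to 10.29 TPM for mitochondrial members. The highest mitochondrial member exceeded 84.5% and 83.3% of nuclear protein-coding genes. In each library 19 of the 20 cytosolic members lay above it. The exception was Cars, the cytosolic cysteine enzyme, at 8.45 and 10.14 TPM. On log2(TPM + 1) the cytosolic median exceeded the mitochondrial median by 2.32 ± 0.058 (SD, n = 2), a difference far larger than its spread between the libraries. The cytosolic members together held 88.2% of the summed TPM of all members in replicate 1 and 88.8% in replicate 2. The members as a whole made up 0.319% and 0.331% of the TPM of nuclear protein-coding genes.

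Nuclear protein-coding genes held 19.1% of all TPM in replicate 1 and 22.8% in replicate 2, so the deposited TPM of most members is higher in replicate 2. Rescaled TPM, in which only nuclear protein-coding genes enter the total, takes out that shift and is used to order the members. In that order 18 of the 36 pairs of neighbours were apart, meaning that their values did not overlap over the libraries.

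Dars, the cytosolic aspartate enzyme and a part of the multisynthetase complex, had the highest level of all members. It was at 59.71 and 78.69 TPM, or 313 and 345 on rescaled TPM, and lies at chr1:128363707-128417368 of mm10 on the minus strand. Its level exceeded that of 97.9% and 98.1% of nuclear protein-coding genes. Eprs, which charges both glutamate and proline tRNAs, was next at 48.78 and 63.43 TPM, or 256 and 278 on rescaled TPM, below Dars in both libraries. It lies at chr1:185363044-185428360 on the plus strand and took the most counts of any member, 32257 and 30756, over a leading transcript of 4906 nt. Nars, the asparagine enzyme, was at 45.29 and 61.30 TPM, or 238 and 268 on rescaled TPM. The ranges of Eprs and Nars over the libraries overlapped on that scale, so their order is not settled.

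Kars, the lysine enzyme, was at 38.36 and 43.13 TPM, and Farsa, the catalytic subunit of the phenylalanine enzyme, at 36.84 and 44.71 TPM. Farsb, the other subunit of the same enzyme, was lower, at 14.58 and 19.98 TPM. The subunits were therefore apart in both libraries, and their full-length coding transcripts, defined below, were too, at 26.5 and 33.6 TPM for Farsa and 12.9 and 15.7 TPM for Farsb. Rars, Qars, Gars, Tars and Lars, the arginine, glutamine, glycine, threonine and leucine enzymes, ranged over 17.36 to 23.54 TPM in replicate 1 and 21.62 to 29.24 TPM in replicate 2. Hars, Iars, Wars, Yars and Aars, the histidine, isoleucine, tryptophan, tyrosine and alanine enzymes, ranged over 10.01 to 14.17 TPM and 12.25 to 16.30 TPM. These 5 lay below those 5 in both libraries, and Cars lay lowest of the cytosolic set. Sars, Mars and Vars, the serine, methionine and valine enzymes, had high gene TPM and are described with their transcripts.

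Members of the multisynthetase complex had a higher median than the other cytosolic members, but the ranges overlapped widely. The 8 synthetase genes of the complex (Eprs, Iars, Lars, Mars, Qars, Rars, Kars and Dars) had medians of 30.95 and 36.2 TPM, against 15.97 and 21.89 TPM for the other 12. On log2(TPM + 1) the difference was 0.78 ± 0.14 (SD, n = 2), and the libraries gave 0.88 and 0.68. It was 0.56 on full-length coding TPM. Within the complex the genes ranged over 14.17 to 59.71 TPM in replicate 1 and 15.58 to 78.69 TPM in replicate 2, so transcripts of its parts were not at equal levels. The 3 scaffold genes were closer to each other: Aimp1 was at 25.93 and 30.59 TPM, Aimp2 at 22.56 and 23.76 TPM, and Eef1e1 at 20.75 and 27.33 TPM. By structural class, the 10 cytosolic class I members had medians of 20.8 and 24.2 TPM. The 10 of class II had medians of 29.5 and 35.0 TPM, with overlapping ranges. Eprs, which serves both glutamate and proline, was counted in class I only. On full-length coding TPM the medians were 11.055 and 12.605 for class I and 20.585 and 25.37 for class II, again with overlapping ranges.

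The mitochondrial forms are given in groups drawn after the values were seen, which overlap at their edges. Rars2, the arginine enzyme, at 8.60 and 10.29 TPM, and Iars2, the isoleucine enzyme, at 9.44 and 9.07 TPM, had the highest means, and their order differed between the libraries. Iars2 lies at chr1:185284726-185329396 on the minus strand, on the same stretch of chromosome 1 as Eprs. Tars2, Hars2, Fars2, Lars2 and Yars2, for threonine, histidine, phenylalanine, leucine and tyrosine, ranged over 5.60 to 6.84 TPM in replicate 1 and 6.72 to 9.27 TPM in replicate 2, where Tars2 was above Iars2. Cars2, the cysteine enzyme, stood below them at 3.83 and 4.41 TPM. Another 8, Vars2, Nars2, Pars2, Sars2, Mars2, Aars2, Ears2 and Wars2, were at or below 3.18 TPM in both libraries. Vars2, the valine enzyme, was at 3.18 and 1.86 TPM, and its full-length coding transcript Vars2-201 was closer between the libraries at 1.09 and 1.35 TPM. Sars2 and Aars2, the serine and alanine enzymes, were at 1.97 and 2.66 TPM and at 1.61 and 1.70 TPM.

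Mars2, the mitochondrial methionine enzyme, shows why levels are compared per length. It had 2429 and 2642 counts, more than the 1810 and 1710 counts of Cars. Its annotated transcript is a single exon of 11294 nt that holds a coding sequence of 1758 nt, and its level was 1.52 and 2.13 TPM, against 8.45 and 10.14 TPM for Cars. The deposited TPM takes that whole annotated length as given.

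Each mitochondrial form was then set against the cytosolic form for the same amino acid, with Eprs as partner of both Ears2 and Pars2 and the mean of Farsa and Farsb as partner of Fars2. The cytosolic form was higher in both libraries in 17 of 17 pairs. The median difference over pairs was 2.19 ± 0.15 on log2(TPM + 1) (SD, n = 2), from values of 2.08 and 2.29. The size of the difference varied greatly between amino acids: the ratio of TPM was at least 10 in both libraries in 8 pairs and below 3 in both in 6 pairs.

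**Figure D2:**
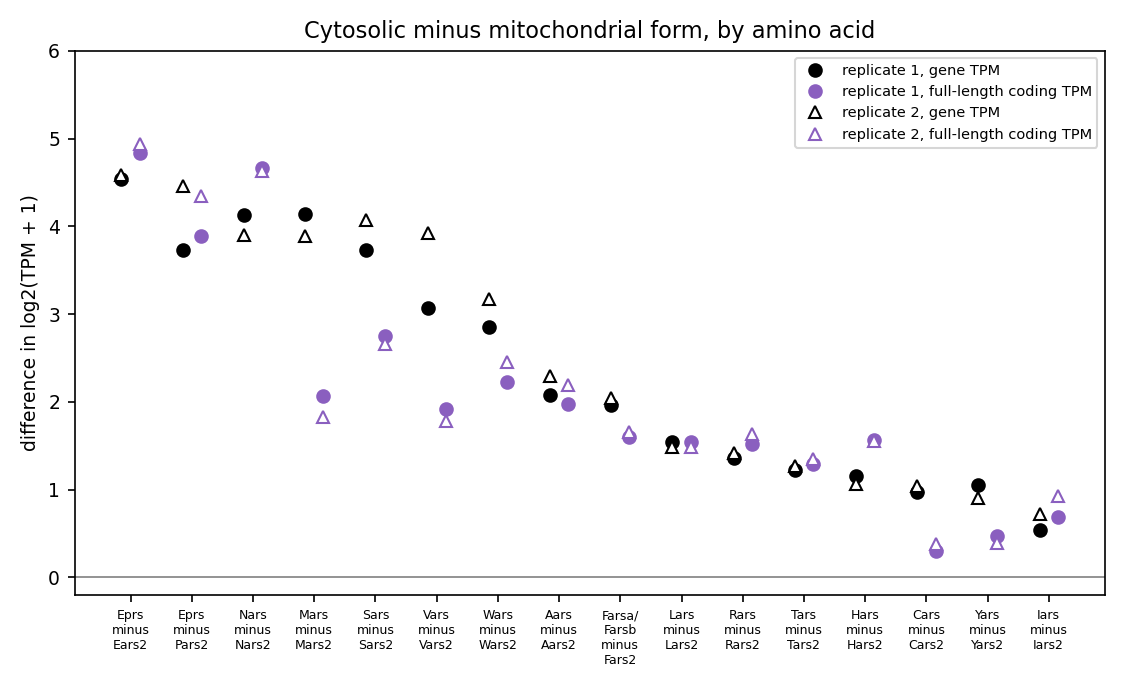
Cytosolic minus mitochondrial form in log2(TPM + 1) for 16 of the 17 amino acid pairs, in the order of the mean over both libraries on gene TPM (black), with the same difference on full-length coding TPM in purple, replicate 1 filled and replicate 2 open. All points lie above 0, and the Mars, Sars and Vars pairs drop most on full-length coding TPM.

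The pair furthest apart was glutamate. Eprs was at 48.78 and 63.43 TPM, against 1.14 and 1.69 TPM for Ears2, the enzyme that makes mitochondrial glutamyl-tRNA and, in mammals, also the misacylated precursor of glutaminyl-tRNA. The ratio was 42.8 in replicate 1 and 37.5 in replicate 2. By the mean difference in log2(TPM + 1), proline came next, with a ratio of 17.8 and 32.9. Asparagine and methionine followed at nearly the same mean. Nars was at 45.29 and 61.30 TPM against 1.65 and 3.16 TPM for Nars2, a ratio of 27.4 and 19.4. Pars2, the mitochondrial proline enzyme, was at 2.74 and 1.93 TPM.

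At the other end, isoleucine was the pair closest together on gene TPM. Iars was at 14.17 and 15.58 TPM, against 9.44 and 9.07 TPM for Iars2, a ratio of 1.50 in replicate 1 and 1.72 in replicate 2. Yars and Yars2 differed by a ratio of 2.26 and 1.99, Cars and Cars2 by 2.21 and 2.30, and Hars and Hars2 by 2.43 and 2.24. Iars2 overlaps Rab3gap2, at 11.76 and 13.68 TPM, by 2034 nt on opposite strands. Cars2 overlaps Naxd, at 13.69 and 13.24 TPM, by 984 nt in the same way. No source used here states whether the counting used strand, so reads in these overlaps cannot be assigned with certainty. On log2(TPM + 1) the SD of the isoleucine difference was 0.13 around a mean of 0.63, and that of the glutamate difference 0.030 around a mean of 4.56. The differences between the ends of this order thus exceed the spread between the libraries many times over. The pair with the widest spread was valine, at 3.50 ± 0.61 (SD, n = 2).

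Total RNA also holds partly spliced and shortened transcripts, and a gene's TPM adds up all annotated transcripts of the gene. The 37 members have 190 transcripts in the deposited tables, and 10 members have 1 transcript. Transcripts annotated as protein-coding held a median of 90.7% of a member's TPM in replicate 1 and 97.0% in replicate 2. In 18 members that share was at least 90% in both libraries. Among them are the 10 members with 1 transcript, and Fars2, Kars, Sars and Tars2. All annotated transcripts of these are coding, so their share is 100% by annotation, whatever the reads. The leading transcript was the same in both libraries for 33 members. The exceptions were Ears2, Nars2, Vars and Wars.

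For 3 of the highest cytosolic members the gene TPM rested mainly on short transcripts. Mars led with Mars-204, a retained-intron transcript of 467 nt, which held 50.4% of the gene's TPM in replicate 1 and 57.9% in replicate 2 from 912 and 745 counts. Mars-201, which carries a coding sequence of 2706 nt, had 3790 and 3074 counts but 9.52 and 10.09 TPM. Because TPM divides by length, a short transcript with fewer counts gives more TPM. Vars led with Vars-204, a retained-intron transcript of 475 nt, in replicate 1 (41.8% of TPM) and with Vars-202, a short coding transcript of 423 nt, in replicate 2 (39.8%), while its long coding transcript Vars-201 was at 6.89 and 6.99 TPM. Sars led with Sars-204, a coding transcript of 637 nt, at 50.8% and 63.5% of its TPM. The deposited estimates do not show whether these short models were present as such.

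**Figure D3:**
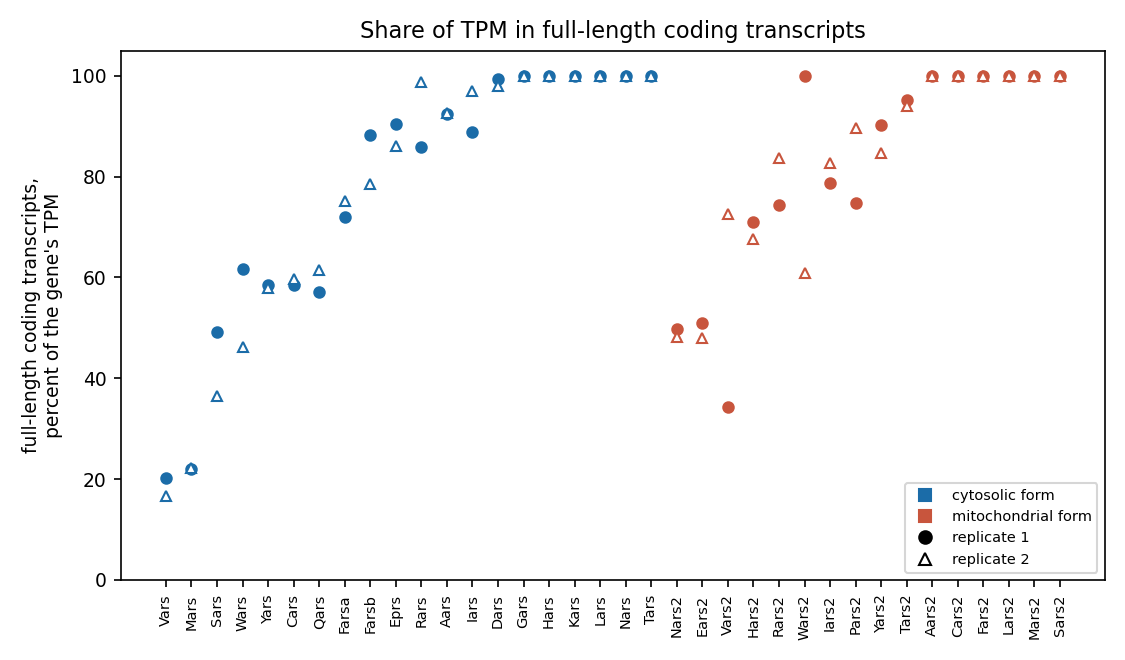
Percent of the gene's TPM in full-length coding transcripts for 36 members, with the cytosolic forms in blue left of the mitochondrial forms in red, each set ordered by its mean, replicate 1 as a filled circle and replicate 2 as an open triangle. Vars, Mars and Sars lie below 50% in both libraries, and many members of both sets lie at 100%. Among those at 100% are the 10 members with 1 annotated transcript, which can take no other value.

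Levels were therefore also taken from full-length coding transcripts, meaning protein-coding transcripts whose coding sequence is at least 0.8 of the longest of the gene. This measure was chosen after the transcript values were seen. On it, Mars was at 9.52 and 10.09 TPM, Vars at 6.89 and 7.05 TPM and Sars at 18.95 and 22.12 TPM, well below their gene TPM of 43.34 and 45.29, 34.07 and 42.51, and 38.47 and 60.64. Full-length transcripts held 22.0% and 22.3% of the TPM of Mars but 63.9% and 70.3% of its counts. Members under 50% of TPM in both libraries were 3 cytosolic forms (Mars, Vars and Sars) and 1 mitochondrial form, Nars2. The median over cytosolic members was 88.5% and 89.5%, and over mitochondrial members 90.4% and 84.7%, so which set was higher differed between the libraries.

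The contrast of cytosolic with mitochondrial forms was smaller on full-length coding TPM, at 1.95 against 2.32 on gene TPM, and all 17 pairs kept the cytosolic form higher. The sets overlapped more on this measure, where the highest mitochondrial level was 7.43 and 8.72 TPM. Cars, Vars and Yars lay below that level in both libraries, and Wars did in replicate 2. The methionine pair had a ratio of 6.26 in replicate 1 and 4.74 in replicate 2 in place of 28.5 and 21.3. The valine pair had a ratio of 6.32 and 5.22 in place of 10.7 and 22.9, so the libraries were also closer together. Pairs with a ratio of at least 10 in both libraries numbered 4. The smallest ratios were those of Cars over Cars2, at 1.29 and 1.37, and of Yars over Yars2, at 1.46 and 1.36. Nars over Nars2 was larger than on gene TPM, at 55.2 and 40.3. A member with 1 annotated transcript cannot fall on this measure, so a pair's ratio also depends on how many transcripts each gene has annotated. Nars has 1, so only Nars2 could fall, from 1.65 and 3.16 TPM to 0.82 and 1.52. Mars2 has 1 as well, so in the methionine pair only Mars could fall. A short Nars2 transcript marked for nonsense-mediated decay, Nars2-205, held 50.2% and 33.7% of the TPM of Nars2.

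Kars shows isoforms of a gene that serves both compartments in humans. Kars-201, with a coding sequence of 1785 nt, was at 28.72 and 35.19 TPM. Kars-202 and Kars-203 share a longer coding sequence of 1872 nt, 29 codons more. In humans the form with the longer start is the mitochondrial one. The longer forms together were at 9.64 and 7.94 TPM, or 25.1% and 18.4% of the gene's TPM. Kars-202 was at 6.82 and 7.60 TPM, close in both libraries, while Kars-203 was at 2.82 and 0.34 TPM. The highest level of a gene named as a mitochondrial form was 9.44 TPM in replicate 1, for Iars2, and 10.29 TPM in replicate 2, for Rars2. Gars has 1 annotated transcript, so its products cannot be told apart in these tables.

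Ratios between libraries were taken as log2 CPM (counts scaled to library size, using trimmed means of M values), replicate 2 minus replicate 1. The median was 0.02 for cytosolic and 0.02 for mitochondrial members. The median absolute ratio was 0.116 for cytosolic and 0.181 for mitochondrial members, against 0.227 for all protein-coding genes kept and 0.185 for nuclear protein-coding genes at or above 1 TPM in both libraries. The value of the mitochondrial members is thus close to that of other expressed genes. Of the members, 25 were within 0.2 of 0. By their median of 0.185, most nuclear protein-coding genes at or above 1 TPM were within it too. An absolute ratio above 0.5 was seen in 3 of 37 members, against 25.4% of the 12855 genes kept, and all 3 were mitochondrial forms. Of the 8764 nuclear protein-coding genes at or above 1 TPM in both libraries, 980 exceeded that ratio.

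**Figure D4:**
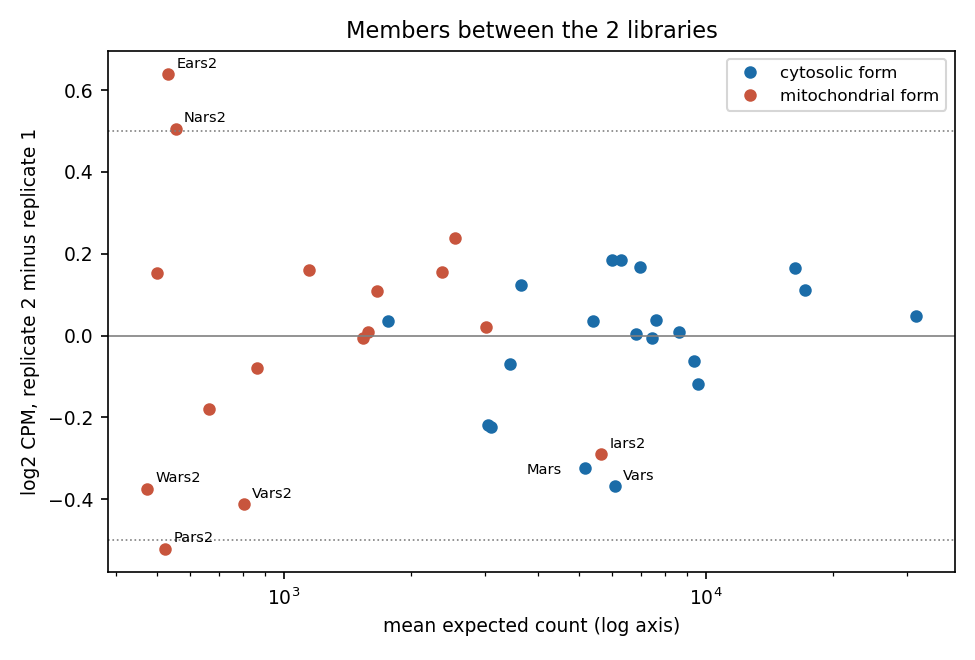
Log2 CPM of replicate 2 minus replicate 1 for 36 members against its mean expected count on a log axis, cytosolic forms in blue and mitochondrial forms in red, with dotted lines at an absolute ratio of 0.5. The points beyond the lines are Ears2, Nars2 and Pars2, which are among the members with the fewest counts.

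Those 3 were Ears2 at 0.64, from 436 counts in replicate 1 and 627 in replicate 2, Nars2 at 0.51, from 479 and 628 counts, and Pars2 at -0.52, from 636 and 408 counts. Of the 17 mitochondrial members 8 had a mean below 1000 counts, and of the 20 cytosolic members 0 did. In Ears2 the full-length transcript Ears2-201 had similar counts of 156 and 167. The retained-intron transcript Ears2-203 had 95.1 and 460 counts, and Ears2-202, also a retained-intron transcript, had 185 and 0. Among cytosolic members the lowest ratios were those of Vars at -0.37 and Mars at -0.32. Whether intron reads account for any of these ratios was not tested.

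Amino acids differ in how often they are used, and the levels were set beside that usage as a description. Usage was the share of each amino acid among the residues of annotated coding sequences, 1 per gene, weighted by the gene's TPM. Leucine was the most used, at 9.12% of residues in replicate 1 and 9.09% in replicate 2, and tryptophan the least, at 0.986% and 0.978%. Across the 20 amino acids, the correlation of usage with the log2(TPM + 1) of the cytosolic form was positive but modest, and it was not tested. On full-length coding TPM the Pearson r was 0.45 in each library and the Spearman rho 0.43 and 0.44. On gene TPM, r was 0.33 and 0.35. The points share a library, and Eprs stands at both glutamate and proline. Without Eprs, r was 0.40 and 0.41 on full-length coding TPM and 0.27 and 0.30 on gene TPM. Cars, the lowest cytosolic form, serves cysteine, at 1.68% of residues in both libraries. Dars was highest at 5.27% and 5.30% aspartate, while Lars was at 18.79 and 21.62 TPM and Aars at 10.01 and 12.25 TPM with 7.31% and 7.25% alanine. Aars overlaps the protein-coding gene Exosc6 by 1326 nt on the same strand. No level was found for Exosc6, so reads in that overlap cannot be assigned with certainty.

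**Figure D5:**
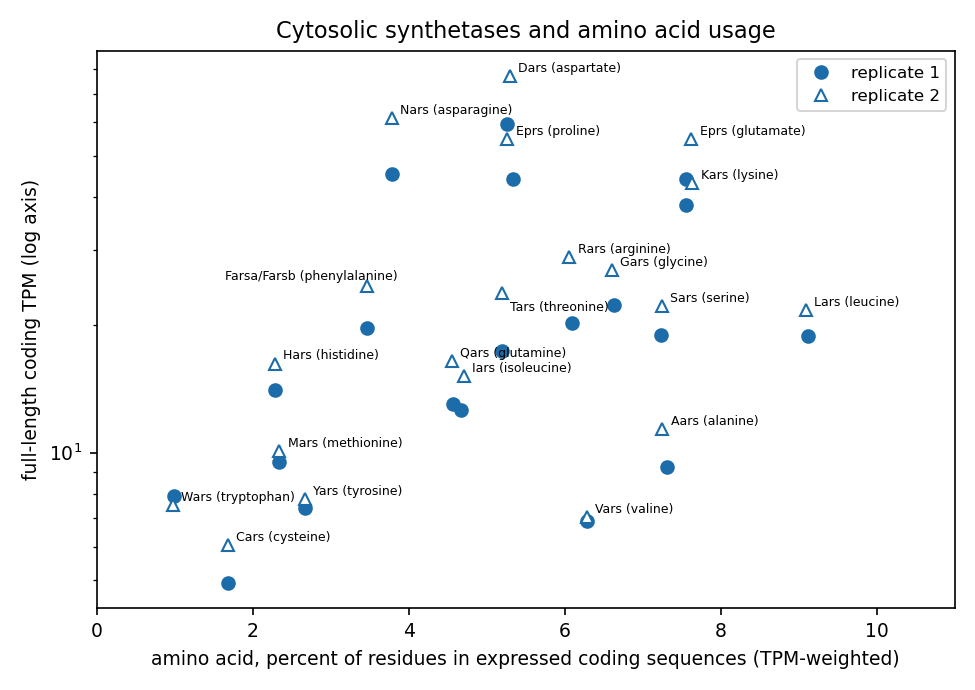
Full-length coding TPM of the cytosolic form on a log axis against the share of its amino acid among residues of expressed coding sequences, for 20 amino acids, replicate 1 as filled circles and replicate 2 as open triangles. The low-usage amino acids tryptophan, cysteine and tyrosine lie low, while Vars and Aars lie low for well-used amino acids and Dars and Nars are high at middle usage.

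The mitochondrial genome encodes 13 proteins, whose residues are 15.5% leucine, 9.84% isoleucine, 8.13% threonine and 1.69% arginine. Across the 17 amino acids with a mitochondrial form, usage had an r of 0.21 and 0.19 with the log2(TPM + 1) of that form, from gene TPM. The Spearman rho of usage with gene TPM was 0.19 and 0.07. Iars2 and Tars2 were high for well-used amino acids, but Rars2 was among the highest for arginine, the least used after cysteine. Lars2 was at 5.81 and 7.09 TPM.

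Many cytosolic synthetase genes are known targets of ATF4, the transcription factor of the amino acid response, which binds with C/EBP partners to a composite element. Promoter windows of 250 bases before to 50 after the RefSeq start (GRCm38.p6) were found for 27 members, in 28 windows. The part of that element with the letters TGATGNAA, searched on both strands, was found in 5 of 13 cytosolic members (38.5%) and 0 of 14 mitochondrial members, where 3.97% of all 32851 promoters hold it. The members with it were Aars, Gars, Iars, Tars and Yars. The core GCATGCGC of the element of NRF1, a factor known to act on nuclear genes for mitochondrial proteins, was also searched on both strands. It was found in 0 of 13 cytosolic and 3 of 14 mitochondrial members (21.4%), namely Rars2, Vars2 and Wars2, where 2.71% of all promoters hold it. A match is a description of letters, not a site shown to be bound. Each motif was found in members of a single set, and matches of 7 members are shown, leaving out Aars. Each sequence runs 5′ to 3′ on the gene's strand, with the match in capitals, and a match to the opposite strand appears as the reverse complement of the motif.
Gars, chr6:55037960-55037989, plus strand: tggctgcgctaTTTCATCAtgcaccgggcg
Iars, chr13:49682126-49682155, plus strand: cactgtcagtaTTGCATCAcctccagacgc
Tars, chr15:11399655-11399684, minus strand: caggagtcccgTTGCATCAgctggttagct
Yars, chr4:129189895-129189924, plus strand: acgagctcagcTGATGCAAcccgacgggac
Rars2, chr4:34614895-34614924, plus strand: cggccccgtgtGCATGCGCactccacactt
Vars2, chr17:35667620-35667649, minus strand: gagtcttttacGCATGCGCctgcgtgtccc
Wars2, chr3:99141015-99141044, plus strand: ccagaggacagGCGCATGCgtagtaagcac

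The cytosolic members with the TGATGNAA match were not the highest of the 20: Gars was at 22.22 and 26.94 TPM, Tars at 17.36 and 23.80, and Iars, Yars and Aars between 10.01 and 15.58 TPM. Only 13 of the 20 had a promoter window, so whether the highest members hold a match is not shown here. Rars2 was among the highest mitochondrial members and Wars2 the lowest, so no common level goes with the NRF1 core. Vars2 holds a second match 20 bases before its start. Aars, whose matches are not shown, holds a TGATGNAA match at -112 and another at 9 from its start.

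Of 13 genes of the amino acid response, 9 reached 1 TPM and 5 reached 10 TPM in both libraries. Atf4 was at 72.62 and 80.95 TPM. Phgdh and Psat1, enzymes of serine synthesis, were at 94.05 and 134.29 TPM and at 20.47 and 30.08 TPM. Asns, the asparagine synthetase that is a standard readout of the response, was low at 4.41 and 5.67 TPM. Its product is charged by Nars, which was at 45.29 and 61.30 TPM. Trib3 had 0 counts in both libraries, which allows up to 0.0606 CPM in replicate 1 and 0.0678 CPM in replicate 2 by counting error, and Chac1 had 0 and 1. Ddit3 was at 4.08 and 10.60 TPM. Ddit3 and Mars overlap by 68 nt on opposite strands, and no source used here states whether the counting used strand, so reads there cannot be assigned with certainty.

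Helpers of charging in mitochondria lay in the range of the mitochondrial synthetases, with medians of 3.92 and 3.12 TPM over 4 genes. Gatb, Gatc and Qrsl1, which encode the amidotransferase that makes glutaminyl-tRNA, were at 4.39 and 3.39, 3.03 and 2.84, and 3.44 and 2.85 TPM. Mtfmt, which formylates the initiator methionyl-tRNA, was at 4.63 and 5.70 TPM. The cytosolic elongation factor Eef1a1, which carries charged tRNAs to the ribosome, was at 1838 and 2572 TPM, and its mitochondrial counterpart Tufm at 13.74 and 18.26 TPM. Pstk and Sepsecs, which convert seryl-tRNA to selenocysteinyl-tRNA, were at 4.36 and 6.11 TPM and at 3.50 and 4.10 TPM. Of 6 synthetase-like and proofreading genes all reached 1 TPM in both libraries and 2, Aarsd1 and Dtd1, reached 10 TPM. Of 10 tRNA maturation genes found, all reached 1 TPM and 3 reached 10 TPM in both libraries, with the RNA ligase Rtcb highest at 33.68 and 44.09 TPM.

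The members were also set beside their neighbours in the genome. A protein-coding gene that starts within 1000 nt on the opposite strand and is read away from the member, allowing an overlap of up to 200 nt, was annotated for 3 of 20 cytosolic members (15%) and 6 of 17 mitochondrial members (35.3%), against 7.92% of all 22015 nuclear protein-coding genes. Hars and Hars2 are such a pair with each other, overlapping by 198 nt at their starts, and their levels were 14.02 and 16.20 TPM for Hars and 5.76 and 7.22 TPM for Hars2. Partners of other mitochondrial members were Orc3 for Rars2, Lyrm4 for Fars2, Mrps12 for Sars2 and Ubfd1 for Ears2. Orc3, a subunit of the origin recognition complex, was at 22.98 and 35.47 TPM beside 8.60 and 10.29 TPM for Rars2. Mrps12, a protein of the mitochondrial ribosome, was at 8.22 and 7.82 TPM beside 1.97 and 2.66 TPM for Sars2. The partners of the cytosolic members Kars and Yars were Terf2ip, at 1.74 and 3.32 TPM, and S100pbp, at 3.59 and 3.45 TPM. Genes with neighbouring starts were therefore not at equal levels.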

How the data were processed

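Total RNA of granulocyte-monocyte progenitors was measured in 2 libraries of 1 group, with totals of 49473848 and 44260902. Per the file headers, the deposited tables hold expected counts, TPM and FPKM per gene and transcript, posterior means, credibility bounds (taken as signal values) and the percent of its gene that a transcript holds. The labels name assembly mm10; for the aligner and the quantifier, no name is given in the sources used here. Size selection differed, at 200 to 712 and 200 to 1000 with no unit given.

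Symbols, classes, coordinates and coding sequences come from GENCODE M21 on the same assembly, matched by identifier without version for 42462 of 43346 genes. The metadata name an earlier GENCODE release, so M21 classes and coding lengths may differ from the transcript models that were quantified. Qars-209, for example, has a deposited length of 459 nt and an M21 coding sequence of 461 nt. Levels are deposited TPM; log values are log2(TPM + 1), which understate differences of low genes. Expected counts were rounded for edgeR 4.0.16 (R 4.3.3), with TMM factors of 0.985 and 1.02, filterByExpr and a prior count of 2. Across the 12855 genes kept, the common biological coefficient of variation came to 0.264. The ratio code was tested on simulated data. Alternatives were a pseudocount of 0.1, FPKM, posterior means, rescaled TPM, means, DESeq2 1.42.0 size factors, a prior count of 0.5, no filter, a lowess GC trend (span 0.3) removed, and each library alone; full-length coding TPM was added after the values were seen. Named genes are the members and the genes of fixed lists; 1 member is counted in all summaries but its own values are not reported here. The rule for members uses symbols only, but the rule and the lists were chosen with earlier results of these data known.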

Additional observations from a re-analysis of the deposited data

How the results depend on the processing

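No result changed direction under any alternative run. The cytosolic minus mitochondrial median, 2.32 as reported, was 2.55 with a pseudocount of 0.1, 2.48 on FPKM, 2.52 on rescaled TPM, 2.46 with means, 2.10 without members below 1 TPM in both libraries, 1.95 on full-length coding TPM and 2.22 without Gars and Kars. The median over pairs, 2.19 as reported, was 2.67, 2.50, 2.60 and 1.85 with the pseudocount of 0.1, FPKM, rescaled TPM and full-length coding TPM. The complex contrast was 0.56, the cytosolic share of summed TPM 87.6%, and members at or above 10 TPM numbered 14 on full-length coding TPM. That count was 30 on rescaled TPM, where all values are higher. There every cytosolic member passed 10, with a minimum of 44.3 and 44.4, and so did several mitochondrial members, such as Rars2 at 45.1 and 45.1. The split of the sets at 10 TPM therefore depends on the scale. With each library alone the values ranged over 2.28 to 2.36 for the medians, 2.08 to 2.29 for the pairs, 0.679 to 0.878 for the complex contrast, 90.7% to 97.0% for the coding share and 19 to 21 for members at or above 10 TPM, and 17 pairs and 36 members at or above 1 TPM were counted in each. Members at or above 1 TPM in both libraries, 36 as reported, numbered 34 on full-length coding TPM and 37 on rescaled TPM. The median ratio of mitochondrial members, 0.02 as reported, was 0.06 with the GC trend removed.

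No paired analysis was possible because there is 1 group. With 2 libraries no gene was tested. TPM depends on the annotated transcript models, and the split of reads among transcripts of a gene is an estimate. Fewest counts, below a mean of 1000, lie behind 8 mitochondrial members.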
